A study of Homo sapiens with 10 samples.

Results

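The aminoacyl-tRNA synthetase genes were followed in SH-SY5Y cells with less TDP-43 or with TDP-43 N352S. They were taken by symbol as the nuclear genes whose enzymes attach amino acids to tRNA, and the table names them by their older symbols (AARS for AARS1, and so on). All 36 were present among the 58174 genes of the table, 20 for the cytosolic enzymes and 16 for the mitochondrial ones. All 36 also passed the minimum of a mean of 1 TPM and were among the 17118 genes tested. TPM is an abundance per transcript length, scaled to a fixed total in each library, so levels may be compared between genes as shares of one total.

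SH-SY5Y is an established human neuroblastoma line with neuronal traits. In the siRNA experiment, 3 siTDP-43 libraries came from cells given an siRNA pool against TDP-43, and 3 siControl libraries from cells given a control pool, each at 50 nM for 96 hours. In the edited series, 2 N352S libraries came from cells made homozygous for this TDP-43 substitution by genome editing, and 2 wild-type libraries from cells with wild-type TDP-43. TDP-43, the product of TARDBP, is a nuclear RNA-binding protein that is lost from the nucleus of affected neurons in amyotrophic lateral sclerosis. The labels speak of biological replicates without saying which cultures or how many edited clones they came from. The p-values thus reflect variation among the libraries at hand, which may be technical.

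An aminoacyl-tRNA synthetase reads its amino acid and the matching tRNAs and joins them, which sets the accuracy of translation. Cytosol and mitochondria use separate enzymes for most amino acids, both sets encoded in the nucleus, while GARS and KARS serve both compartments and glutaminyl-tRNA in mitochondria is made by a detour through EARS2 and an amidotransferase. Several cytosolic enzymes sit in a multisynthetase complex on the scaffold proteins AIMP1, AIMP2 and EEF1E1. Uncharged tRNA activates the kinase GCN2 (EIF2AK4), which phosphorylates eIF2 and so raises the translation of ATF4, a transcription factor whose known targets include many cytosolic synthetase genes. In the nervous system these enzymes are known from inherited disease, with dominant variants of GARS, YARS, AARS and HARS in peripheral neuropathy and recessive variants of mitochondrial members in disorders of the brain.

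TARDBP averaged 64.35 ± 2.91 TPM in siTDP-43 libraries and 255.8 ± 0.43 TPM in siControl libraries (SD, n = 3 each). It averaged 122.6 ± 0.33 TPM in N352S libraries and 200.5 ± 6.97 TPM in wild-type libraries (SD, n = 2 each), so TARDBP RNA was also lower in the edited cells, at 61.1% of wild type. Neuroblastoma and neuronal markers, taken as a list of 10 genes, were abundant in all libraries, with summed levels of 5657 to 5854 TPM in siTDP-43, 5562 to 5915 in siControl, 4749 to 5042 in N352S and 5571 to 5636 in wild type, although TH, for catecholamine synthesis, averaged 2.76 TPM or less in every group. Markers of Schwann cells (4 genes) summed to 3.92 to 4.56 TPM in siTDP-43 and 5.16 to 6.77 in siControl, and to 6.65 to 7.48 in N352S and 9.03 to 9.59 in wild type. Fibroblast markers (4 genes) summed to 28.94 to 32.13 TPM in siTDP-43 and 25.06 to 27.74 in siControl, and to 27.75 to 29.63 in N352S and 29.05 to 37.47 in wild type, and immune markers (2 genes) to 2.73 TPM or less. SOX10, PRRX1 and PTPRC, which define these 3 cell types, were at 0.41 TPM or less in every library and listed at 0 in all siControl libraries. The part of these marker levels in the results was not tested. In bulk libraries, fewer cells of a type and less RNA per cell cannot be told apart. The depth of the libraries is unknown, because TPM keep none.

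The cytosolic genes were far more abundant than the mitochondrial ones. Their summed level was 2316 ± 17.2 TPM in siTDP-43 and 2631 ± 30.1 TPM in siControl (SD, n = 3 each), and 3292 ± 39.7 TPM in N352S and 3882 ± 54.4 TPM in wild type (SD, n = 2 each). The mitochondrial genes summed to 483.8 ± 7.85 TPM in siTDP-43 and 530.6 ± 20.7 TPM in siControl, and to 459.9 ± 6.92 TPM in N352S and 474.2 ± 10.6 TPM in wild type. Within each experiment the groups did not overlap in the cytosolic sums, nor in the mitochondrial sums. The mitochondrial gap was narrow in the edited series, with 464.8 TPM in N352S library 82 and 466.7 TPM in wild-type library 80. In the cytosolic sums the wild-type libraries stood above all others.

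The cytosolic total was thus 4.79 times the mitochondrial one in siTDP-43 and 4.96 times in siControl, against 7.16 times in N352S and 8.19 times in wild type. Of 17 pairs in which a cytosolic and a mitochondrial gene serve the same amino acid, 15 had the cytosolic gene higher in every library. The exceptions were CARS with CARS2, for cysteine, and IARS with IARS2, for isoleucine, whose ratios went down to 0.93. The widest ratio was 76.7, for MARS over MARS2 in N352S library 82.

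**Figure D1:**
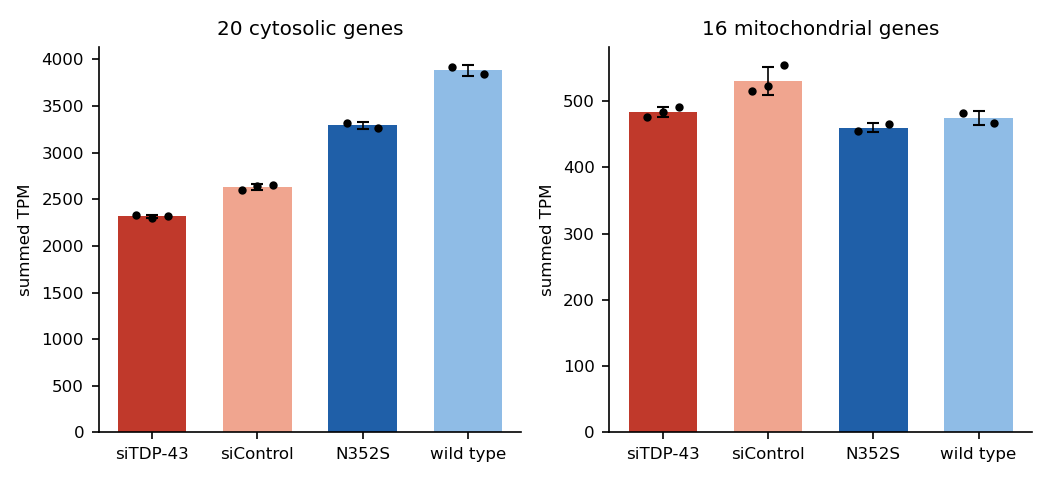
Summed TPM of the 20 cytosolic and the 16 mitochondrial synthetase genes, with a point for each library, the group mean as a bar and its SD as an error bar. Neither the cytosolic nor the mitochondrial sums overlap between siTDP-43 and siControl or between N352S and wild type. The cytosolic sums lie higher in the edited series, and the mitochondrial sums lie between 455.0 and 554.0 TPM in all libraries.

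Averaged over all 10 libraries, GARS (glycine), MARS (methionine) and QARS (glutamine) were the most abundant cytosolic members, but their order differed between experiments. GARS was highest in the edited series, with means of 444.2 TPM in N352S and 563.8 TPM in wild type. In siTDP-43, QARS averaged 248.8 TPM, MARS 193.1 and GARS 183.1, and in siControl MARS averaged 236.0 TPM, QARS 233.2 and GARS 227.2. In wild type SARS, NARS and WARS stood above QARS. QARS was the flattest of the 3, with 256.15, 236.94 and 253.33 TPM in siTDP-43, 256.35, 231.42 and 211.88 TPM in siControl, 258.56 and 240.77 TPM in N352S, and 247.88 and 253.22 TPM in wild type. Its groups overlapped in both experiments, and it passed in neither comparison (log2 change 0.10 ± 0.07, adjusted p = 0.325 in knockdown, and -0.01 ± 0.08, adjusted p = 0.971 in N352S, limma). Among the mitochondrial genes IARS2, HARS2 for histidine and RARS2 for arginine were the highest, and the lowest were MARS2, WARS2, PARS2 and FARS2, each under 9 TPM. RARS2 had 67.82, 68.15 and 66.67 TPM in siTDP-43, 62.68, 69.14 and 74.05 TPM in siControl, 67.1 and 67.99 TPM in N352S, and 64.31 and 64.53 TPM in wild type. Its siRNA groups overlapped and its N352S libraries were the higher ones of the edited pair, without a call in either comparison (log2 change -0.02 ± 0.05, adjusted p = 0.832, and 0.07 ± 0.07, adjusted p = 0.528).

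**Figure D2:**
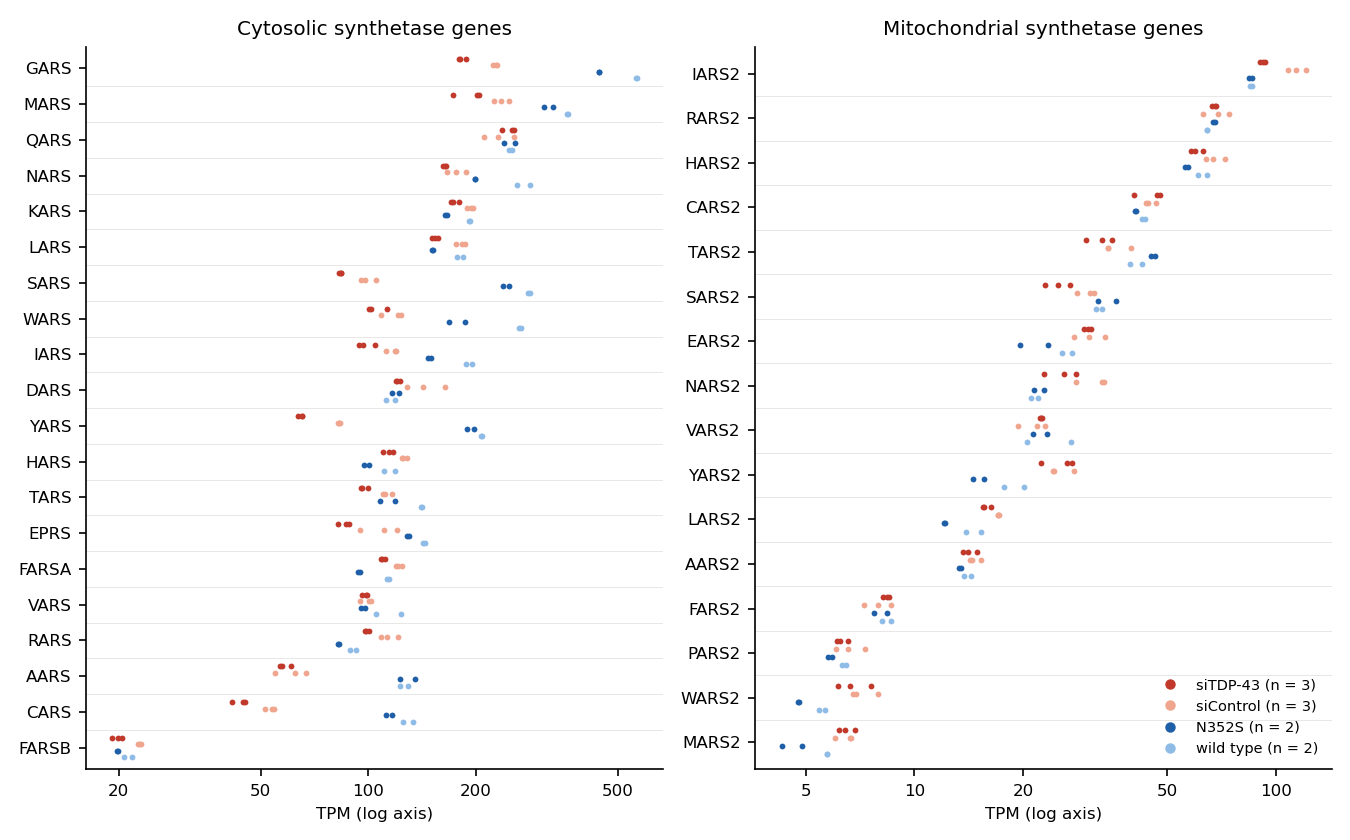
TPM of the 36 synthetase genes on a log axis, a row per gene, with a point for each library coloured by group (n = 3 siTDP-43, 3 siControl, 2 N352S and 2 wild type). Cytosolic genes lie mostly above 50 TPM, mitochondrial genes mostly below, and a subset of cytosolic genes, among them SARS, YARS, GARS and CARS, has its edited-series points to the right of its siRNA points.

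That subset was set apart by comparing wild type with siControl, the controls of the experiments. Between them, 9 of 20 cytosolic genes and 0 of 16 mitochondrial genes were at least 1.5-fold higher in wild type, where 10.4% of all tested genes were. The ratios of mean TPM were 2.84 for SARS, 2.51 for YARS, 2.48 for GARS, 2.43 for CARS, 2.26 for WARS, 2.05 for AARS, 1.64 for IARS, 1.54 for NARS and 1.53 for MARS. They charge serine, tyrosine, glycine, cysteine, tryptophan, alanine, isoleucine, asparagine and methionine. Of the enzymes outside the multisynthetase complex 7 of 12 were in this subset, and of those inside it 2 of 8, IARS and MARS. NARS and MARS lay just inside the threshold, and the highest ratio below it was that of EPRS, for glutamate and proline, at 1.32. The other 11 cytosolic genes had ratios of 0.796 to 1.32, and the mitochondrial ones of 0.683 to 1.14. In N352S libraries the 9 genes were at 1.12 to 2.45 times siControl, with a median of 1.95. These are descriptions with no test, because siRNA treatment, genome editing and the experiment itself cannot be told apart in a difference between these controls.

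**Figure D3:**
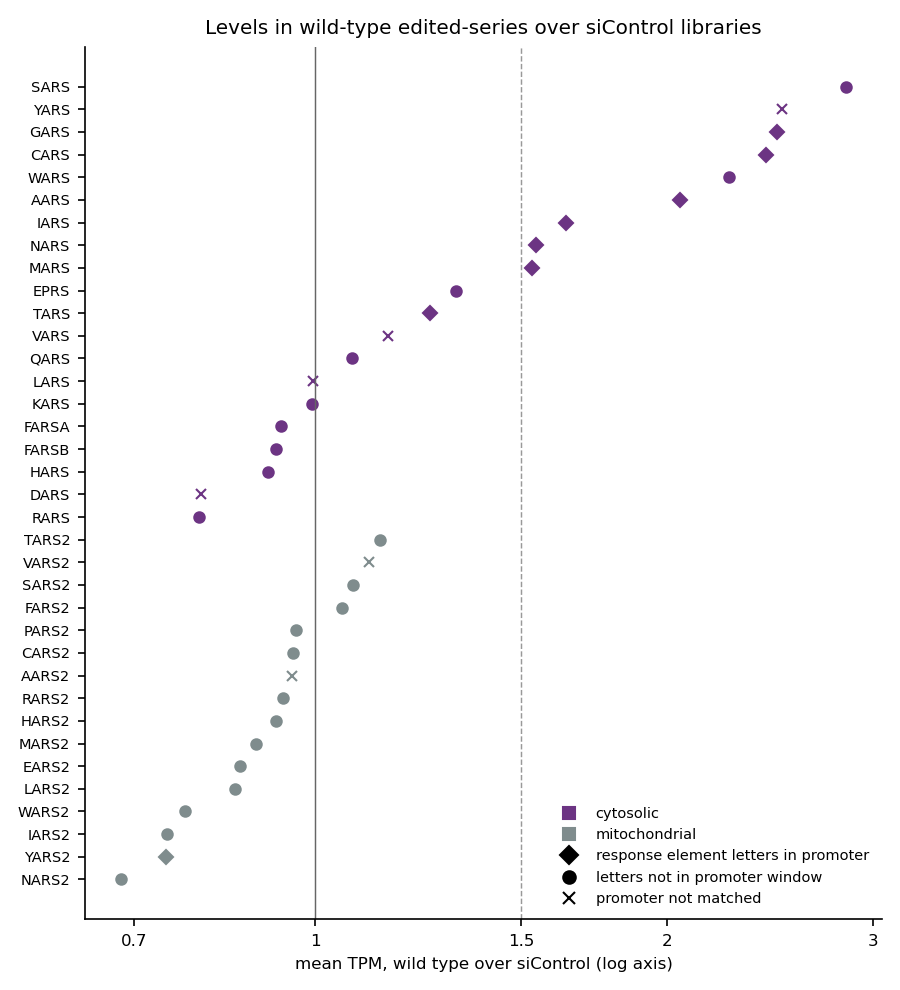
Ratio of mean TPM in wild type over siControl for each synthetase gene on a log axis, coloured as cytosolic or mitochondrial, with a dashed line at 1.5-fold, and with diamonds where a promoter window holds the core TGATGNAA, circles where none does and crosses where no window was matched. The 9 cytosolic genes from MARS at 1.53 to SARS at 2.84 lie beyond the line, and all 16 mitochondrial genes lie at 1.14 or less.

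Genes of the ATF4 and amino acid response were also higher in wild type than in siControl. Of 21 tested genes of that list, 19 were at least 1.5-fold higher in wild type than in siControl, with a median ratio of 3.25. ATF4 itself had 426.98 and 429.69 TPM in wild type, against 158.58, 160.16 and 159.45 TPM in siControl. ASNS, asparagine synthetase, averaged 537.5 ± 15.1 TPM in wild type (n = 2) and 82.83 ± 1.16 TPM in siControl (SD, n = 3). Of 10 tested amino acid transporters 7 were past the same fold. None of the 13 genes for eIF2 kinases and their partners was, nor any of the 10 mitochondrial translation factors. Of all tested genes 10.4% were past this fold, and in lists this short none is not far from that share.

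Because ATF4 binds with C/EBP partners at composite sites with the core TGATGNAA, promoter windows were searched for these letters on both strands. The windows, from RefSeq on GRCh38.p14, run from 250 bases before to 50 bases after an annotated start, and a gene may have several. They were available for 30 members, and not for DARS, LARS, VARS, YARS, AARS2 and VARS2. The core was in a window of 6 of the 8 matched genes at least 1.5-fold higher in wild type than in siControl, AARS, CARS, GARS, IARS, MARS and NARS, and in none of SARS and WARS. It was in 1 of 8 other cytosolic genes (TARS) and in 1 of 14 mitochondrial genes (YARS2), while 4.46% of all 27305 genes with a window held it. Counting the first window alone, 5 of the 8 held it, without GARS, against 3.67% of all genes. Another motif, the E-box CACGTG, was in 1 of 16 cytosolic genes (IARS), in 3 of 14 mitochondrial genes (CARS2, EARS2 and MARS2) and in 8.77% of all genes. A match is a description of letters, not a bound site.

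The 30 bases around each core are printed on the gene's strand, 5′ to 3′, to show how alike the matches are, with the core in capitals. A core that begins with TT is the match as read on the other strand.
AARS, chr16:70289675-70289704, minus strand: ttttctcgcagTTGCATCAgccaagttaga
CARS, chr11:3057407-3057436, minus strand: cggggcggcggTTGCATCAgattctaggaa
GARS, chr7:30594834-30594863, plus strand: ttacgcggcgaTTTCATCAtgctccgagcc
IARS, chr9:92293692-92293721, minus strand: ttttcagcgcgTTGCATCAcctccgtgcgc
MARS, chr12:57488053-57488082, plus strand: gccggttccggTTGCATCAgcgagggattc
NARS, chr18:57621804-57621833, minus strand: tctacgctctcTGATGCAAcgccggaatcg
TARS, chr5:33440956-33440985, plus strand: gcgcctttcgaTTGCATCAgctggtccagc
YARS2, chr12:32756076-32756105, minus strand: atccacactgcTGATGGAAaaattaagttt
AARS, CARS, IARS, MARS and TARS share the octamer TTGCATCA, and NARS carries the same letters in the opposite orientation, while the matches of GARS and YARS2 are spelled otherwise. The first base of the match lay close to the annotated start in CARS (-2 bases), IARS (-13), MARS (-4), TARS (3), NARS (15) and GARS (-33), and further upstream in AARS (-187) and YARS2 (-197).

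TDP-43 knockdown was followed by lower RNA of most cytosolic synthetases. Of 20 cytosolic genes 15 fell and 0 rose, with a median log2 change of -0.21, beside a median of -0.08 over all tested genes. The background was high, since 19.8% of all tested genes were called lower and 6.19% higher. Groups did not overlap, with all siTDP-43 libraries lower, for 16 of 20 cytosolic genes, against 31.7% of all tested genes. Of 16 mitochondrial genes 4 fell and 0 rose, with a median of -0.05, and 4 had non-overlapping groups with siTDP-43 lower. In the multisynthetase complex 7 of 8 genes fell, all but QARS, and outside it 8 of 12. Changes were small, and the levels of cytosolic genes in siTDP-43 were 78.0% to 107% of those in siControl.

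The count depends on the scaling. With the libraries scaled by median-of-ratios factors 7 of the 20 cytosolic genes fell, and with quantile normalization 8, beside 2077 and 2015 of all tested genes lower and 1944 and 1932 higher. The cytosolic median was then -0.12 under either, beside 0.00 over all genes, while the mitochondrial median turned to 0.02 and 0.04. CARS, EPRS, GARS, LARS, SARS, YARS and the mitochondrial IARS2 were called lower under both of these scalings and under each of the other 20 alternatives. Genes encoded in mitochondrial DNA took 15.5% to 16.2% of all TPM in siTDP-43 and 11.998% to 14.3% in siControl, and leaving them out left 2 mitochondrial synthetases called.

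YARS, tyrosyl-tRNA synthetase, had the smallest adjusted p of the set. It had 65.26, 65.37 and 63.62 TPM in siTDP-43, against 82.53, 83.59 and 82.85 TPM in siControl. Every siTDP-43 library was lower than every siControl library, with a log2 change of -0.35 ± 0.03 (SE, limma adjusted p = 0.000118). GARS had 188.46, 179.99 and 180.97 TPM in siTDP-43, against 228.28, 223.94 and 229.41 TPM in siControl. All siTDP-43 values were again below the siControl values, with a log2 change of -0.31 ± 0.03 (adjusted p = 0.000166). LARS, for leucine, had 150.71, 153.63 and 156.94 TPM in siTDP-43, against 176.13, 182.83 and 186.66 TPM in siControl, also without overlap (log2 change -0.24 ± 0.03, adjusted p = 0.00121).

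SARS, seryl-tRNA synthetase, had 83.74, 82.87 and 83.72 TPM in siTDP-43, against 95.35, 97.76 and 104.92 TPM in siControl. Its groups did not overlap, and the siControl values were the more spread ones (log2 change -0.25 ± 0.04, adjusted p = 0.00217). CARS, for cysteine, had 44.6, 41.6 and 45.22 TPM in siTDP-43, against 54.55, 53.89 and 51.6 TPM in siControl. All siTDP-43 libraries were lower (log2 change -0.28 ± 0.05, adjusted p = 0.00249). MARS, the methionyl enzyme, had 204.62, 172.81 and 201.81 TPM in siTDP-43, against 247.84, 235.14 and 225.09 TPM in siControl. Library 2 was the lowest of the siTDP-43 libraries, and the groups did not overlap (log2 change -0.29 ± 0.07, adjusted p = 0.0113).

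The other cytosolic genes that fell were IARS (log2 change -0.25), TARS for threonine (-0.21), FARSA and FARSB, the subunits of the phenylalanine enzyme (-0.15 and -0.20), RARS for arginine (-0.20), KARS for lysine (-0.14), EPRS (-0.33), HARS for histidine (-0.14) and DARS for aspartate (-0.25). DARS (adjusted p = 0.0405) lost its call without any one library other than siControl library 1, with adjusted p of 0.0541 to 0.102. HARS (adjusted p = 0.0262) lost it without siTDP-43 library 1 or 2 or siControl library 2 or 3, with adjusted p of 0.0631 to 0.0945. AARS (-0.07), NARS (-0.11), VARS for valine (-0.01), WARS for tryptophan (-0.16) and QARS (0.10) did not pass. With the replicate number as a block, WARS passed as well (adjusted p = 0.0473). NARS and WARS also passed without siControl library 1 (adjusted p = 0.0425 and 0.0364).

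Of the mitochondrial genes IARS2, for isoleucine, had the clearest change. It had 91.96, 93.36 and 90.39 TPM in siTDP-43, against 108.34, 113.7 and 121 TPM in siControl. The groups did not overlap, and the log2 change was -0.31 ± 0.04 (adjusted p = 0.00103). SARS2, for serine, had 22.91, 25 and 26.97 TPM in siTDP-43, against 28.23, 31.47 and 30.55 TPM in siControl. All siTDP-43 libraries were lower (log2 change -0.26 ± 0.07, adjusted p = 0.0259), but without siTDP-43 library 1 or 2, or siControl library 2 or 3, the adjusted p was 0.0855, 0.0659, 0.0853 and 0.0679.

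NARS2, for asparagine, had 22.82, 27.99 and 25.98 TPM in siTDP-43, against 33.45, 27.98 and 32.94 TPM in siControl. Library 2 of siTDP-43 was as high as library 2 of siControl, so the groups overlapped (log2 change -0.29 ± 0.09, adjusted p = 0.0392, and 0.0646 with the replicate block). HARS2 had 59.86, 58.36 and 62.71 TPM in siTDP-43, against 63.89, 67 and 72.36 TPM in siControl. The groups did not overlap, but the call was at the threshold (log2 change -0.16 ± 0.05, adjusted p = 0.0476). NARS2 lost its call without siTDP-43 library 1 or 3, siControl library 1 or 3 or any one edited-series library, with adjusted p of 0.0519 to 0.122. HARS2 lost it without any one library other than siControl library 1, with adjusted p of 0.0568 to 0.144. HARS and HARS2 overlap head to head on opposite strands by 437 bases, and SARS2 overlaps MRPS12. HARS2 also shares 639 bases with ZMAT2 on its own strand, which counting by strand would not separate. YARS overlaps S100PBP on the opposite strand by 1387 bases, KARS overlaps TERF2IP by 858 and MARS overlaps DDIT3 by 982. Among members not called, YARS2 overlaps DNM1L by 18161 bases and AARS2 overlaps TMEM151B by 7853, both on the opposite strand. VARS2 overlaps GTF2H4 on its own strand by 5865. These 3 partners had mean levels similar to or above those of the members. Counting by strand is not stated, so reads there may not be separated.

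**Figure D4:**
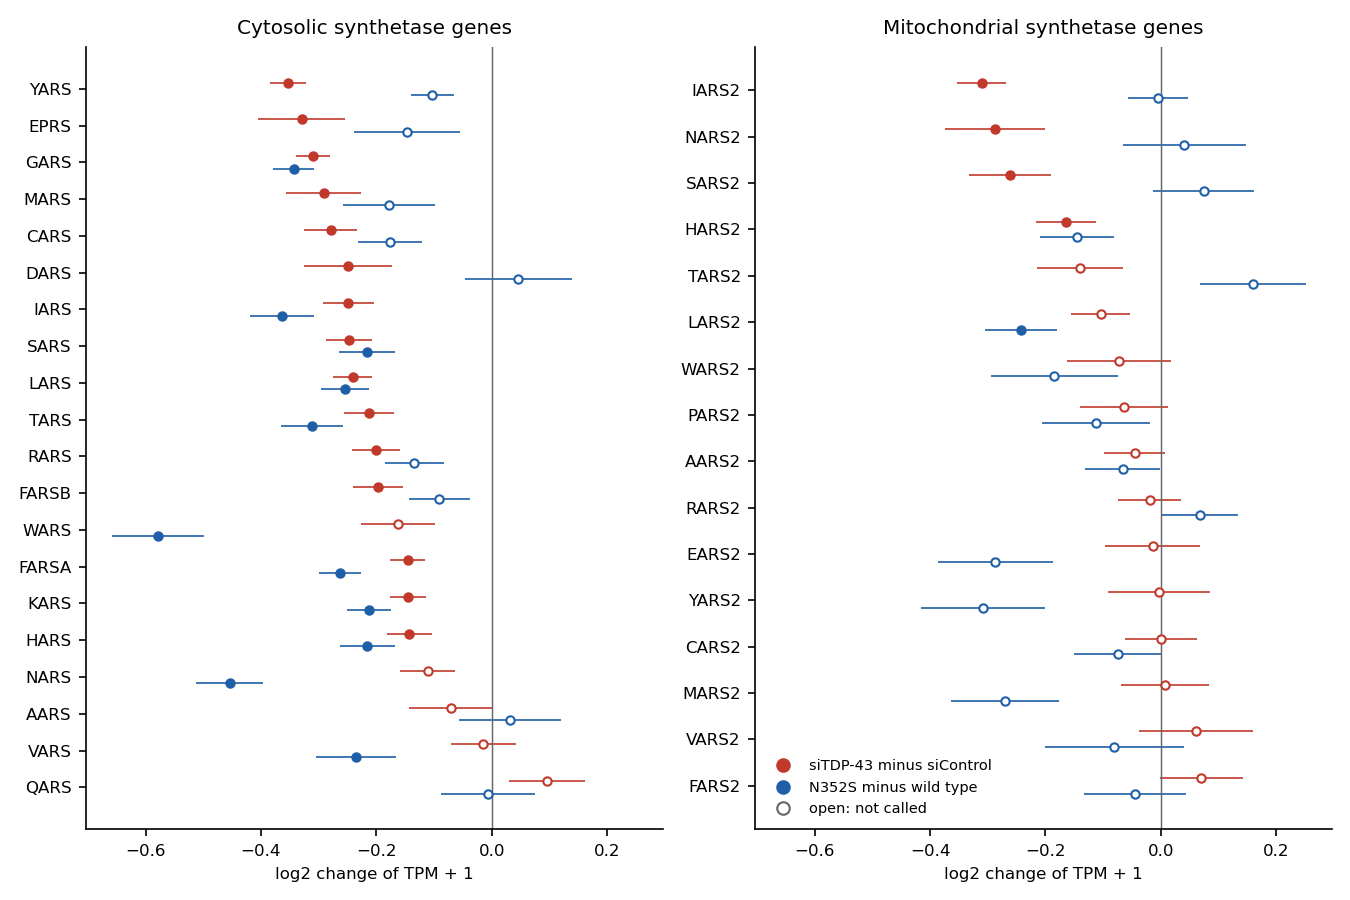
Log2 change of each synthetase gene with its SE, for siTDP-43 minus siControl and for N352S minus wild type, with filled points for called genes, open points for the others and a line at no change. Called genes all lie on the lower side, 15 cytosolic and 4 mitochondrial in knockdown and 11 cytosolic and 1 mitochondrial in N352S.

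N352S cells had lower RNA of a part of the cytosolic synthetases. Of 20 cytosolic genes 11 fell and 0 rose, with a median log2 change of -0.21, beside -0.03 over all tested genes, of which 11.9% were called lower and 8.28% higher. The N352S libraries lay below both wild-type libraries, without overlap, for 17 of 20 cytosolic genes, against 34.7% of all tested genes. Of 16 mitochondrial genes 1 fell and 0 rose, with a median of -0.08, and 9 had N352S below wild type without overlap. Outside the multisynthetase complex 8 of 12 genes fell, and within it 3 of 8, IARS, KARS and LARS. FARSA, GARS, IARS, KARS, LARS, NARS, TARS and WARS were called lower in all 22 alternatives as well. The cytosolic count was 10 with median-of-ratios scaling, 9 with the edited groups alone, and 8 to 13 without one library, lowest without wild-type library 79 and highest without siControl library 3.

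GARS had 443.69 and 444.61 TPM in N352S, against 562.44 and 565.08 TPM in wild type. The pairs lay close together within each group and apart between them (log2 change -0.34 ± 0.04, adjusted p = 0.000236). NARS, asparaginyl-tRNA synthetase, had 198.71 and 199.48 TPM in N352S, against 284.89 and 261.85 TPM in wild type. Both N352S libraries were lower (log2 change -0.45 ± 0.06, adjusted p = 0.000856). WARS, the tryptophan enzyme and an interferon-inducible gene in human cells, had 187.4 and 168.61 TPM in N352S, against 263.89 and 267.95 TPM in wild type. This was the most negative change of the 36 genes (log2 change -0.58 ± 0.08, adjusted p = 0.0012).

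FARSA had 95.22 and 93.97 TPM in N352S, against 114.34 and 113.07 TPM in wild type. The groups were apart (log2 change -0.26 ± 0.04, adjusted p = 0.0013), while FARSB, the partner subunit, did not pass (-0.09 ± 0.05, adjusted p = 0.272). IARS had 147.48 and 150.43 TPM in N352S, against 195.26 and 188.59 TPM in wild type. Both N352S libraries were lower (log2 change -0.36 ± 0.05, adjusted p = 0.00204). The other cytosolic genes that fell were LARS (log2 change -0.25), TARS (-0.31), KARS (-0.21), HARS (-0.22), SARS (-0.22) and VARS (-0.24).

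Calls of SARS, HARS and VARS rested on single libraries. SARS had 238.43 and 247.37 TPM in N352S, against 284.84 and 279.79 TPM in wild type. These groups did not overlap (adjusted p = 0.0135), yet without N352S library 81, wild-type library 79 or wild-type library 80 the adjusted p was 0.0724, 0.0834 and 0.0512. HARS gave 0.0132, against 0.0736 without N352S library 82 and 0.0996 without wild-type library 79. VARS gave 0.0429, and between 0.0617 and 0.229 with the replicate block or without any one of 7 libraries, the highest without wild-type library 79. A group left with 1 library is assumed to vary like the other groups.

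LARS2, for leucine, was the mitochondrial gene that fell. It had 12.1 and 12.18 TPM in N352S, against 15.26 and 13.85 TPM in wild type. The N352S libraries were lower (log2 change -0.24 ± 0.06, adjusted p = 0.0257), but the call was lost with the replicate block (adjusted p = 0.0532) and without N352S library 81, N352S library 82 or wild-type library 79 (adjusted p = 0.0821, 0.0787 and 0.165). MARS2, YARS2 and EARS2 were lower in both N352S libraries without passing (log2 change -0.27, -0.31 and -0.29). RARS2 and TARS2, for threonine, were higher in both N352S libraries, also without passing (0.07 and 0.16). EARS2 passed without siControl library 3 or N352S library 82 (adjusted p = 0.0484 and 0.0399), and YARS2 without siTDP-43 library 1 (0.0492). Of the cytosolic genes not called, CARS passed without siTDP-43 library 2 or siControl library 3 (0.0481 and 0.0497) and RARS without siControl library 3 (0.0381).

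The comparisons shared some genes and not others. FARSA, GARS, HARS, IARS, KARS, LARS, SARS and TARS were called lower in both, 8 of the 15 cytosolic genes called in knockdown and 8 of the 11 called in N352S. Of all tested genes 3.48% were called lower in both in the fit reported. Under both scalings GARS, LARS and SARS were still called lower in both comparisons. In knockdown FARSA, HARS and KARS passed under neither scaling. IARS did not pass there with median-of-ratios scaling (adjusted p = 0.0529), nor TARS with quantile normalization (0.0528). Another 7 cytosolic genes were called in knockdown alone (CARS, DARS, EPRS, FARSB, MARS, RARS and YARS), 3 in N352S alone (NARS, VARS and WARS), and AARS and QARS in neither. No mitochondrial gene was called in both. A call in one comparison and not in the other does not show that the effects differ, and the difference of the effects was tested directly.

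The effects differed for 4 of 36 genes, where 22% of all tested genes passed that test. YARS and IARS2 fell more in knockdown, and NARS and WARS fell more in N352S. For YARS the N352S libraries had 198.13 and 189.36 TPM, against 208.46 and 207.65 TPM in wild type, without overlap (log2 change -0.10 ± 0.04, adjusted p = 0.087), and the difference of effects, knockdown minus N352S, was -0.25 ± 0.05 (adjusted p = 0.00635, and 0.0547 under quantile normalization). For IARS2 the N352S libraries had 86.16 and 84.14 TPM and the wild-type libraries 84.81 and 85.99 TPM, which overlap (log2 change -0.00 ± 0.05, adjusted p = 0.968). Its difference of effects was -0.31 ± 0.07 (adjusted p = 0.0114) and passed in every alternative that fitted both experiments.

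For NARS the siTDP-43 libraries had 161.96, 165.06 and 164.09 TPM, against 166.82, 176.65 and 187.75 TPM in siControl. All siTDP-43 values were lower, but by less (log2 change -0.11 ± 0.05, adjusted p = 0.122), and the difference of effects was 0.34 ± 0.08 (adjusted p = 0.0117, and 0.0526 without wild-type library 79). For WARS the siTDP-43 libraries had 100.38, 112.79 and 102.2 TPM, against 108.73, 123.6 and 121.09 TPM in siControl. These groups overlapped (log2 change -0.16 ± 0.06, adjusted p = 0.0974), and the difference of effects was 0.42 ± 0.10 (adjusted p = 0.0194). It did not pass without N352S library 82, wild-type library 79 or wild-type library 80 (adjusted p = 0.0712, 0.0578 and 0.0639). The counts of cytosolic genes whose effects differed were 5 without siControl library 1, which added DARS and EPRS, and 1 without wild-type library 79, beside 3 with all libraries. VARS passed this test without wild-type library 80 (adjusted p = 0.0146), and SARS2 without siTDP-43 library 3 (0.0423) or siControl library 1 and with the replicate block (0.0423). With either scaling 4 cytosolic genes passed. FARSA was among them under both (adjusted p = 0.0267 with median-of-ratios scaling and 0.0135 with quantile normalization), and VARS and the mitochondrial MARS2 passed with quantile normalization (0.028 and 0.0491).

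**Figure D5:**
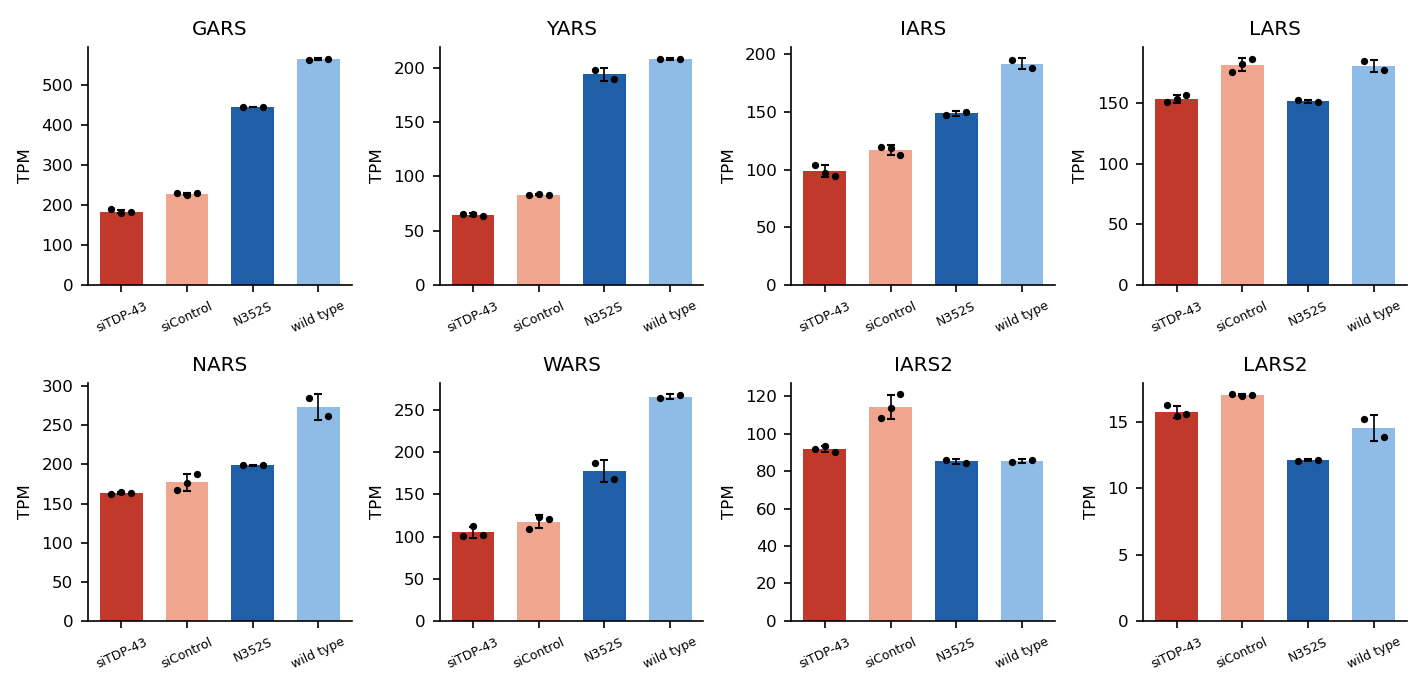
TPM in each library for GARS, YARS, IARS, LARS, NARS, WARS, IARS2 and LARS2, a panel per gene, with a point per library, a bar for the group mean and an error bar for the SD. YARS and IARS2 separate siTDP-43 from siControl by more than N352S from wild type, and NARS and WARS the other way round.

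Genes that act around the synthetases were described from lists of known roles. Their counts are to be read beside the shares of all tested genes. These were 19.8% lower and 6.19% higher in knockdown, and 11.9% lower and 8.28% higher in N352S. The multisynthetase scaffolds AIMP1, AIMP2 and EEF1E1 had no call in knockdown, and AIMP2 fell in N352S (log2 change -0.28, adjusted p = 0.031, and 0.0686 to 0.134 without any one of the edited-series libraries). Of the mitochondrial amidotransferase genes, GATC fell in knockdown (-0.19, adjusted p = 0.0214, not kept without siControl library 2 or any one siTDP-43 library) and the other 2 had no call, while in N352S 0 of 3 were called. Among 7 genes for proofreading and relatives of the synthetases, TARSL2 fell in knockdown (-0.37, adjusted p = 0.0497), which 13 of 22 alternatives did not keep below the threshold. Its adjusted p reached 0.145 without siControl library 3, and GATC and TARSL2 passed under neither scaling. MTFMT, which formylates the mitochondrial initiator tRNA, fell in N352S (-0.53, adjusted p = 0.00137), as did OSGEP (-0.42) and YRDC (-0.18), which help to make a modified adenosine of tRNA. Without any one of the edited-series libraries, OSGEP had adjusted p of 0.0516 to 0.117 and YRDC of 0.0639 to 0.136, and neither passed. YRDC did not pass without siTDP-43 library 1 or 3 or siControl library 2 either (0.052 to 0.0542).

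Of 21 tested genes of the ATF4 and amino acid response, 11 fell and 0 rose in knockdown, and 18 fell and 0 rose in N352S. The median log2 changes were -0.17 and -0.39. With median-of-ratios scaling 8 fell and 2 rose in knockdown and 15 fell in N352S, and with quantile normalization 7 fell and 2 rose, and 17 fell. The list was drawn up with results of these libraries known, so its direction is a description. ATF4 had 147.59, 150.5 and 147.02 TPM in siTDP-43, against 158.58, 160.16 and 159.45 TPM in siControl. It had 358.49 and 368.1 TPM in N352S, against 426.98 and 429.69 TPM in wild type. It was lower without overlap in both comparisons (log2 change -0.10 ± 0.03, adjusted p = 0.0219, and -0.24 ± 0.03, adjusted p = 0.0013). In knockdown its change was close to the median of all tested genes, and the log2 change was -0.02 with median-of-ratios scaling (adjusted p = 0.747) and -0.03 with quantile normalization (0.558). Without siTDP-43 library 1 or 3 or siControl library 2 its adjusted p was 0.073, 0.0784 and 0.0675.

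In knockdown the smallest adjusted p of that list belonged to ATF3 (log2 change -0.99), PHGDH, which opens serine synthesis (-0.41), ASNS (-0.37) and DDIT4, an inhibitor of mTORC1 signalling (-0.34). In N352S they belonged to DDIT4 (-0.68), MTHFD2 of mitochondrial folate metabolism (-0.57), CHAC1, which breaks down glutathione (-1.02), and SLC7A11, the cystine transporter (-1.19). SLC7A11 was at 0.44 TPM or less in all siRNA libraries. ASNS had 63.74, 62.05 and 65.96 TPM in siTDP-43, against 83.13, 81.55 and 83.81 TPM in siControl, so its groups were apart.

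Of 10 tested amino acid transporters, 4 fell and 1 rose in knockdown, and 9 fell and 0 rose in N352S. Under both scalings 3 fell and 3 rose in knockdown, and 8 and 9 fell in N352S. SLC3A2, the heavy chain that pairs with SLC7A5 and SLC7A11, rose in knockdown (log2 change 0.17, adjusted p = 0.0245), while SLC7A1, SLC1A4 and SLC6A9 fell (-0.26, -0.40 and -0.42). SLC3A2 and SLC6A9 did not pass without siTDP-43 library 1 or 2 or siControl library 1 or 3, with adjusted p of 0.0545 to 0.0867 for SLC3A2 and of 0.0643 to 0.0907 for SLC6A9. In N352S the light chain SLC7A5, which imports leucine and tryptophan among others, fell by 0.88 on the log2 scale (adjusted p = 2.93e-05), and SLC38A1 and SLC38A2, which import glutamine and alanine, by 0.37 and 0.49.

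Calls among the eIF2 kinases and their partners went down in knockdown and both ways in N352S. Of 13 genes 9 fell and 0 rose in knockdown, 5 with either scaling, and 2 fell and 2 rose in N352S. The N352S counts are near the shares of all tested genes, 11.9% lower and 8.28% higher. EIF2AK3, the kinase PERK of the endoplasmic reticulum, had 18.68, 16.46 and 16.04 TPM in siTDP-43, against 25.51, 23.04 and 24.31 TPM in siControl (log2 change -0.49, adjusted p = 0.000944). It had 19.7 and 18.85 TPM in N352S, against 13.54 and 13.7 TPM in wild type (0.47, adjusted p = 0.00373). It was thus lower in siTDP-43 and higher in N352S than its control, without overlap in either. EIF2AK4, the sensor of uncharged tRNA, was called lower in knockdown as well, without overlap (-0.24, adjusted p = 0.00652). In N352S it rose (0.29, adjusted p = 0.00952), and EIF2B1 and EIF2S1 fell (-0.24 each). EIF2AK4 did not pass without N352S library 81 or wild-type library 79 (0.0522 and 0.0712), EIF2B1 without N352S library 82 or wild-type library 79 (0.0672 and 0.0791), and EIF2S1 without any one of the edited-series libraries, siTDP-43 library 3 or siControl library 2 (0.0507 to 0.137).

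Downstream of charging, the 7 cytosolic elongation factors had 3 genes that rose and 2 that fell in knockdown, EEF2 (log2 change 0.14) and EEF1B2 (0.13) among the risers and EEF1A2 (-0.24) and EIF5A (-0.13) the ones that fell. With median-of-ratios scaling 5 rose and 1 fell. In N352S EIF5A was called (-0.14), a call lost in 11 of 22 alternatives and reaching 0.124 without wild-type library 80. In knockdown EIF5A did not pass without siTDP-43 library 1 or 3 or siControl library 2 (0.066, 0.0579 and 0.0568). Of 10 mitochondrial translation factors 4 fell in knockdown (MRRF, GFM2, GFM1 and MTIF3) and 3 in N352S (GFM1, TSFM and MTRF1). MTIF3 and MRRF were not called with median-of-ratios scaling, MTIF3 not without siTDP-43 library 2 or 3 or siControl library 3 either (0.0812, 0.0577 and 0.0697). TSFM did not pass without N352S library 81 or wild-type library 80 (0.0553 and 0.0673), and MTRF1 was lost in 14 of 22 alternatives, with adjusted p up to 0.214 without N352S library 82. Of 15 genes for tRNA export, maturation and RNA polymerase III, 4 fell and 1 rose in knockdown, beside 19.8% and 6.19% of all tested genes. In N352S 3 fell and 0 rose, beside 11.9% and 8.28% of all tested genes. TRNT1, which adds the CCA end that synthetases charge, fell in both (-0.62 and -0.44), and so did the exporter XPOT (-0.25 and -0.43). TRNT1 did not pass in N352S without N352S library 82 or wild-type library 79 (0.101 and 0.0954). XPOT did not pass in knockdown under either scaling or without siTDP-43 library 1 or 2 or siControl library 2 (0.0738, 0.0603 and 0.0601).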

How the data were processed

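The deposited table gives TPM, made by the authors, for 58174 genes in 10 libraries. Per the submitters' processing notes, STAR, RSEM and the build hg38 were used. The sources used here do not give versions, annotation or strand setting. Each library's TPM add up to one fixed total, so depth is unknown and a rise of abundant transcripts lowers all others.

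Tests ran on log2(TPM + 1) for the 17118 genes averaging 1 TPM or more, so fold changes understate the change of low genes. A single limma model (limma 3.58.1 under R 4.3.3, mean-variance trend, 6 residual degrees of freedom) held all 4 groups. Contrasts were knockdown (siTDP-43 over siControl), N352S over wild type, and knockdown minus N352S. P-values were adjusted by Benjamini-Hochberg over all tested genes and called under 0.05. Values after ± are SDs over libraries, or SEs after log2 changes. The fit was tested on simulated data. Coordinates and overlaps came from GENCODE 29 on GRCh38.

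Members named in full are, per comparison and class, up to 5 called ones with the smallest adjusted p, the 3 most abundant of each class, and those whose effects differed. List genes are named up to 4 per list and comparison. ATF4, ASNS between the controls, and the per-library values of SLC7A11 were added after their values were seen. The members and lists were chosen with earlier results of these data known.

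Same-numbered siTDP-43 and siControl libraries deviated together (correlations of 0.336, 0.137 and 0.198 over tested genes). Differently numbered ones had correlations of -0.267 to 0.091. Deviations from a group mean depend on each other, so these values do not settle whether the replicate numbers pair the libraries. The fit reported ignores such a pairing, and the replicate block is an alternative. N352S and wild type carry different numbers, and the block covered the siRNA libraries alone. For N352S over wild type the block thus alters the estimate of spread and not the log2 change. In all 22 alternatives were run: pseudocounts of 0.1 and 5, a mean of at least 5 TPM, no filter, 2 scalings, no mitochondrially encoded genes, fits of 2 groups each, other limma options, the replicate block and each library left out.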

Additional observations from a re-analysis of the deposited data

Results flagged for a closer look

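The effects of TDP-43 knockdown and of N352S differed for 4 of 36 synthetase genes by limma's test of the difference between the contrasts. Of all tested genes 22% passed this test, a larger share. Differences are given in log2 as knockdown minus N352S. NARS differed by 0.34 (adjusted p = 0.0117), with a log2 change of -0.11 in knockdown and -0.45 in N352S. WARS differed by 0.42 (adjusted p = 0.0194), with -0.16 in knockdown and -0.58 in N352S. YARS differed by -0.25 (adjusted p = 0.00635), with -0.35 in knockdown and -0.10 in N352S. IARS2 differed by -0.31 (adjusted p = 0.0114), with -0.31 in knockdown and -0.00 in N352S. All 3 siTDP-43 libraries were below all 3 siControl libraries for YARS, IARS2 and NARS, and both N352S libraries below both wild-type libraries for YARS, NARS and WARS. The difference for YARS did not pass under quantile normalization (adjusted p = 0.0547). Those for NARS and WARS did not pass without certain single libraries of the edited series. Groups of 2 and 3 libraries are too small for a test of single outlying libraries.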

How the results depend on the processing

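No called synthetase gene that is named reversed its direction, while the mitochondrial median log2 change in knockdown, -0.05, was 0.02 with median-of-ratios scaling and 0.04 with quantile normalization. The count of all genes lower in knockdown was 2077 with median-of-ratios scaling and 2015 with quantile normalization, beside 3389, and of genes higher 1944 and 1932, beside 1059 (669 to 1071 without one library). Cytosolic genes lower in knockdown numbered 7 and 8 under these scalings, beside 15. Mitochondrial genes lower in knockdown, 4 in the fit reported, numbered 1 with no filter, 1 with either scaling, 2 with mitochondrially encoded genes left out, 2 with the siRNA groups alone, 2 without the trend and 1 to 3 without one library. In N352S, with the edited groups alone, 990 genes were lower and 901 higher, beside 2033 and 1417, and without one library 1019 to 2194 were lower and 813 to 1554 higher. Mitochondrial genes lower in N352S, 1 as reported, numbered 0 with median-of-ratios scaling, with the edited groups alone and with the replicate block, 2 without the trend, and 0 to 2 without one library. The genes whose effects differed numbered 1 to 5 cytosolic and 1 to 2 mitochondrial without one library, and 2 mitochondrial with a mean of at least 5 TPM, with quantile normalization and with the replicate block. Under the replicate block, 16 cytosolic and 3 mitochondrial genes were lower in knockdown and 10 and 0 in N352S, with WARS gained in knockdown and NARS2 (knockdown), VARS and LARS2 (N352S) lost. The causes were not tested. Without depth, no counting error can be given, and 2 libraries in each edited group limit the precision.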
